A study of Arabidopsis thaliana with 9 samples.

Results

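Transcripts of the UDP-glycosyltransferase (UGT) genes were followed in dark-grown Arabidopsis thaliana seedlings. The genes were taken by name: each had a probe set annotated to that gene alone and a symbol made of UGT, a family number, a letter and a further number. The pattern matched 47 genes with 1 probe set each, and leaving out UGT78D2 gave 46 of the 13356 genes that had a probe set of their own. The array held 22746 probe sets, and 13513 of them were paired with a single gene. All 46 probe sets carry the plain "_at" suffix, which marks a design aimed at a single transcript. Another 3 probe sets with matching symbols name several genes and were not used. The 46 genes fall into 11 families by their number: 9 in UGT71, 4 in UGT72, 7 in UGT73, 3 in UGT74, 8 in UGT76, 2 in UGT78, 5 in UGT84, 5 in UGT85, and 1 each in UGT80, UGT87 and UGT88.

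The seedlings had 3 genotypes, all in the Col-0 ecotype: the mutant cop1-4 carrying the construct BBX22-GFPox, the mutant cop1-4 without it, and wild type (WT). All were 4 days old, were kept in darkness at 21 °C on medium with 1% sucrose, and were harvested as whole seedlings. Each genotype had 3 arrays, numbered as biological replicates 1 to 3. The construct is read here as overexpression of BBX22 fused to GFP, and neither its promoter nor the number of lines is given in the sources used here. Whether the replicates were sown separately is not said in the labels, and p-values cover only the spread among these arrays, which may be technical.

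UDP-glycosyltransferases of this family move a sugar, usually glucose from UDP-glucose, onto small molecules. Their acceptors in plants include hormones, hydroxycinnamic acids, monolignols, flavonols, glucosinolate precursors and sterols, and the added sugar alters an acceptor's solubility, storage and activity. Many of the genes lie in tandem arrays of close relatives whose acceptors can differ. The ubiquitin ligase COP1 keeps light responses off in the dark by marking their activators for breakdown. BBX22, a transcription factor with B-box domains, acts in favour of those responses.

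COP1 and BBX22 transcripts were not analysed here and gave no check of the genotypes. Replicate 1 stood apart: it correlated with replicates 2 and 3 of its own genotype at 0.893 to 0.953 across probe sets, whereas replicates 2 and 3 correlated at 0.982 to 0.989. Of 17 marker genes listed for tissues and stages of a seedling, 5 had a probe set with 1 gene, and 4 of them had signals above the offset of 24.5 in all 9 arrays. PORB, a protochlorophyllide reductase listed as a marker of etiolation, had signals of 558 to 1109 in cop1-4 BBX22-GFPox and 1329 to 2157 in cop1-4, against 8669 to 15508 in WT. The oil body protein gene OLEO3 had 35.9 to 98.9 in cop1-4 BBX22-GFPox and 45.6 to 69.1 in cop1-4, against 1960 to 2323 in WT. The guard cell regulator FAMA stood at 156 to 202, 111 to 199 and 31.5 to 95.1 in the same genotypes, and the root hair expansins EXPA7 and EXPA18 overlapped between all genotypes. PORB, OLEO3 and FAMA moved with genotype alongside the differences below, and their part in those was not tested. In whole seedlings, fewer cells of a type and less RNA per cell cannot be told apart.

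Values were compared as log2(signal + 24.5), and a gene was tested if its mean on that scale reached the 30th percentile of all probe sets. Of the 46 genes, 34 were tested. The 12 under the filter were UGT71B5, UGT71B6, UGT71B8, UGT73C2, UGT73C7, UGT76E1, UGT76E12, UGT78D3, UGT84A1, UGT84B1, UGT84B2 and UGT85A3. "Rose" and "fell" are used for genes with an adjusted p under 0.05 in limma (Benjamini-Hochberg, over 15922 probe sets), and each difference is the first-named genotype minus the second on the log2 scale.

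**Figure D1:**
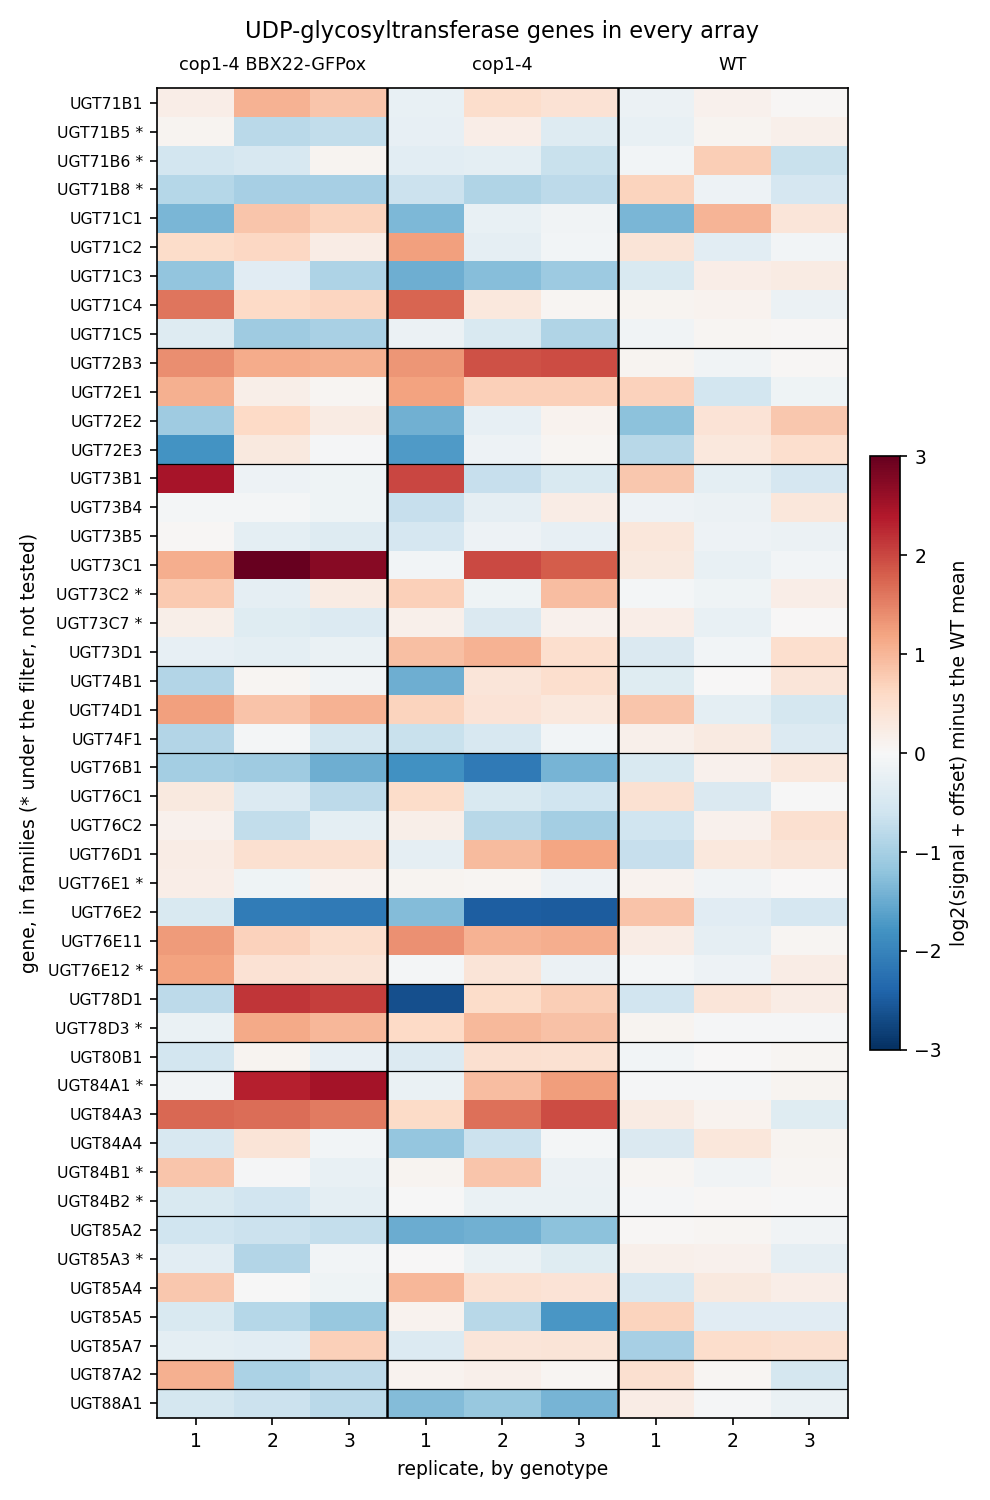
Every array of the 46 genes, with families separated by horizontal lines and genotypes by vertical ones. Colour gives log2(signal + 24.5) minus the gene's WT mean, with red for higher and blue for lower, and a star marks the 12 genes that were not tested. UGT72B3, UGT76E11 and UGT84A3 are red in all 6 arrays of the cop1-4 genotypes, UGT76B1, UGT85A2 and UGT88A1 are blue in all 6, and replicate 1 departs from replicates 2 and 3 in genes such as UGT73B1 and UGT78D1.

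The first comparison asked which UGT transcripts differ between cop1-4 and WT in darkness. Of the 34 tested genes, 3 rose (UGT72B3, UGT84A3 and UGT76E11) and 5 fell (UGT76E2, UGT76B1, UGT85A2, UGT88A1 and UGT71C3). These 8 genes are 23.5% of those tested, against 25.8% called among all 15922 probe sets, so the share of the UGT genes was close to the background. By direction, 8.82% of the genes rose, against 11.3% of all probe sets, and 14.7% fell, against 14.5%. The median difference of the 34 genes was -0.18, against -0.11 over all probe sets, with 16 genes above 0 and 18 below, while 44.9% of all probe sets were above 0. Scaling every array to the same median moved the median of all probe sets by 0.12, to 0.01, and put that of the genes at -0.06. The 3 cop1-4 arrays lay wholly above the 3 WT arrays in 5 genes (14.7%, against 19.2% of all probe sets) and wholly below them in 6 (17.6%, against 25.7%). Without WT replicate 2 the count of called genes was 5 (14.7%, against 15.3% of all probe sets), and in replicates 2 and 3 alone it was 19 (55.9%, against 62.4% of all probe sets). With other arrays left out the share lay on either side of that of all probe sets. It was 23.5% against 15.9% without WT replicate 1, 20.6% against 14.3% without WT replicate 3 and 17.6% against 13.9% without cop1-4 replicate 2. It was 32.4% against 35.4% without cop1-4 replicate 1 and 23.5% against 30.9% without cop1-4 BBX22-GFPox replicate 1. Without cop1-4 replicate 3 or cop1-4 BBX22-GFPox replicate 2 or 3 it was above by less.

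UGT72B3 showed the highest rise in cop1-4 on the log2 scale. Its signal in replicates 1, 2 and 3 was 226, 181 and 177 in cop1-4 BBX22-GFPox, 216, 333 and 346 in cop1-4, and 77.0, 64.4 and 72.9 in WT. All 6 arrays with the cop1-4 mutation lay above all 3 WT arrays, while the 2 mutant genotypes overlapped. The log2 difference between cop1-4 and WT was 1.73 (SE 0.216, limma adjusted p = 0.00144), and the call was kept when any of the 9 arrays was left out. Here and below, leaving out an array of the genotype not compared cannot move the difference, only its standard error and p-value. The other 3 genes of its family, UGT72E1, UGT72E2 and UGT72E3, which glucosylate monolignols and their aldehydes, were not called. The signals of UGT72E1 were 1611, 864 and 794 in cop1-4 BBX22-GFPox, 1778, 1258 and 1249 in cop1-4, and 1233, 508 and 689 in WT. The cop1-4 arrays lay above the WT arrays by a small margin at WT replicate 1, and the difference of 0.87 had an adjusted p of 0.12 without and 0.00745 with the replicate number as a block (limma, Benjamini-Hochberg).

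UGT84A3 belongs to the enzymes that join glucose to hydroxycinnamic acids as esters. It had signals of 295, 284 and 262 in cop1-4 BBX22-GFPox, 119, 282 and 349.8 in cop1-4, and 91.2, 79.2 and 51.3 in WT. Both mutant genotypes lay above WT in every array, and cop1-4 replicate 1 was far below its companions. The rise in cop1-4 was 1.39 (SE 0.345, limma adjusted p = 0.0199), being 0.31 within replicate 1 and 1.93 in replicates 2 and 3. The call was lost without any one of WT replicates 2 and 3 and cop1-4 replicates 2 and 3, with adjusted p of 0.0527, 0.0734, 0.0734 and 0.0644 in that order. Its relative UGT84A4, with signals of 119, 241 and 167 in cop1-4 BBX22-GFPox, 66.7, 104 and 171 in cop1-4 and 126, 232 and 189.9 in WT, stood at -0.62 in cop1-4 and was not called (adjusted p = 0.219). All 3 genotypes overlapped in UGT84A4.

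UGT76E11, whose overexpression is known to raise flavonoid levels, had signals of 206, 130.3 and 113 in cop1-4 BBX22-GFPox, 220.5, 172.5 and 178 in cop1-4, and 86.0, 54.6 and 74.2 in WT. The WT arrays were again the lowest without overlap. The difference between cop1-4 and WT was 1.17 (SE 0.247, limma adjusted p = 0.0112), and the call was kept in all 9 leave-outs. These 3 risen genes come from 3 different families.

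Among the 34 genes the largest fall was that of UGT76E2, an enzyme close to UGT76E1, which glucosylates hydroxylated jasmonate. Its signals were 314, 85.2 and 83.3 in cop1-4 BBX22-GFPox, 166, 59.8 and 58.0 in cop1-4, and 826, 343 and 303 in WT. Replicate 1 was the highest array of every genotype, and the cop1-4 arrays lay below all WT arrays. The difference between cop1-4 and WT was -2.09 (SE 0.561, limma adjusted p = 0.0266), being -2.16 within replicate 1 and -2.06 in replicates 2 and 3. The call was lost without WT replicate 1 or 2 or cop1-4 replicate 2 or 3, with adjusted p of 0.0885, 0.0552, 0.0889 and 0.0831 in that order, while the fit with the replicate block gave 0.000203.

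UGT76B1 glucosylates salicylic acid, N-hydroxypipecolic acid and isoleucic acid, compounds of plant defence. It had signals of 424, 408 and 306 in cop1-4 BBX22-GFPox, 234, 185 and 322 in cop1-4, and 637, 965 and 1113 in WT. Every mutant array lay below every WT array. It fell in cop1-4 (log2 difference -1.77, SE 0.276, limma adjusted p = 0.00332), a call kept in all 9 leave-outs.

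UGT85A2 and UGT88A1 showed the same order of genotypes, and UGT88A1 is known to accept quercetin in vitro. UGT85A2 had signals of 953, 917 and 876 in cop1-4 BBX22-GFPox, 503, 514 and 600.1 in cop1-4, and 1492, 1516 and 1344 in WT. UGT88A1 had 1076, 1000.0 and 889.8 in cop1-4 BBX22-GFPox, 629, 705.5 and 579 in cop1-4, and 1854, 1526 and 1378 in WT. In both genes the 3 genotypes occupied 3 ranges that did not overlap, with cop1-4 lowest, cop1-4 BBX22-GFPox between and WT highest. The log2 difference between cop1-4 and WT was -1.39 for UGT85A2 (SE 0.174, limma adjusted p = 0.00143) and -1.28 for UGT88A1 (SE 0.196, limma adjusted p = 0.00316). Both calls were kept when any of the 9 arrays was left out.

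UGT71C3, which glucosylates methyl salicylate, had signals of 69.1, 142 and 87.2 in cop1-4 BBX22-GFPox, 52.3, 62.9 and 75.4 in cop1-4, and 130.3, 218 and 228 in WT. The cop1-4 arrays lay below the WT arrays, and cop1-4 BBX22-GFPox overlapped WT through its replicate 2. The difference between cop1-4 and WT was -1.27 (SE 0.286, limma adjusted p = 0.0141), with 0.0531 without WT replicate 2 and 0.0556 without WT replicate 3.

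**Figure D2:**
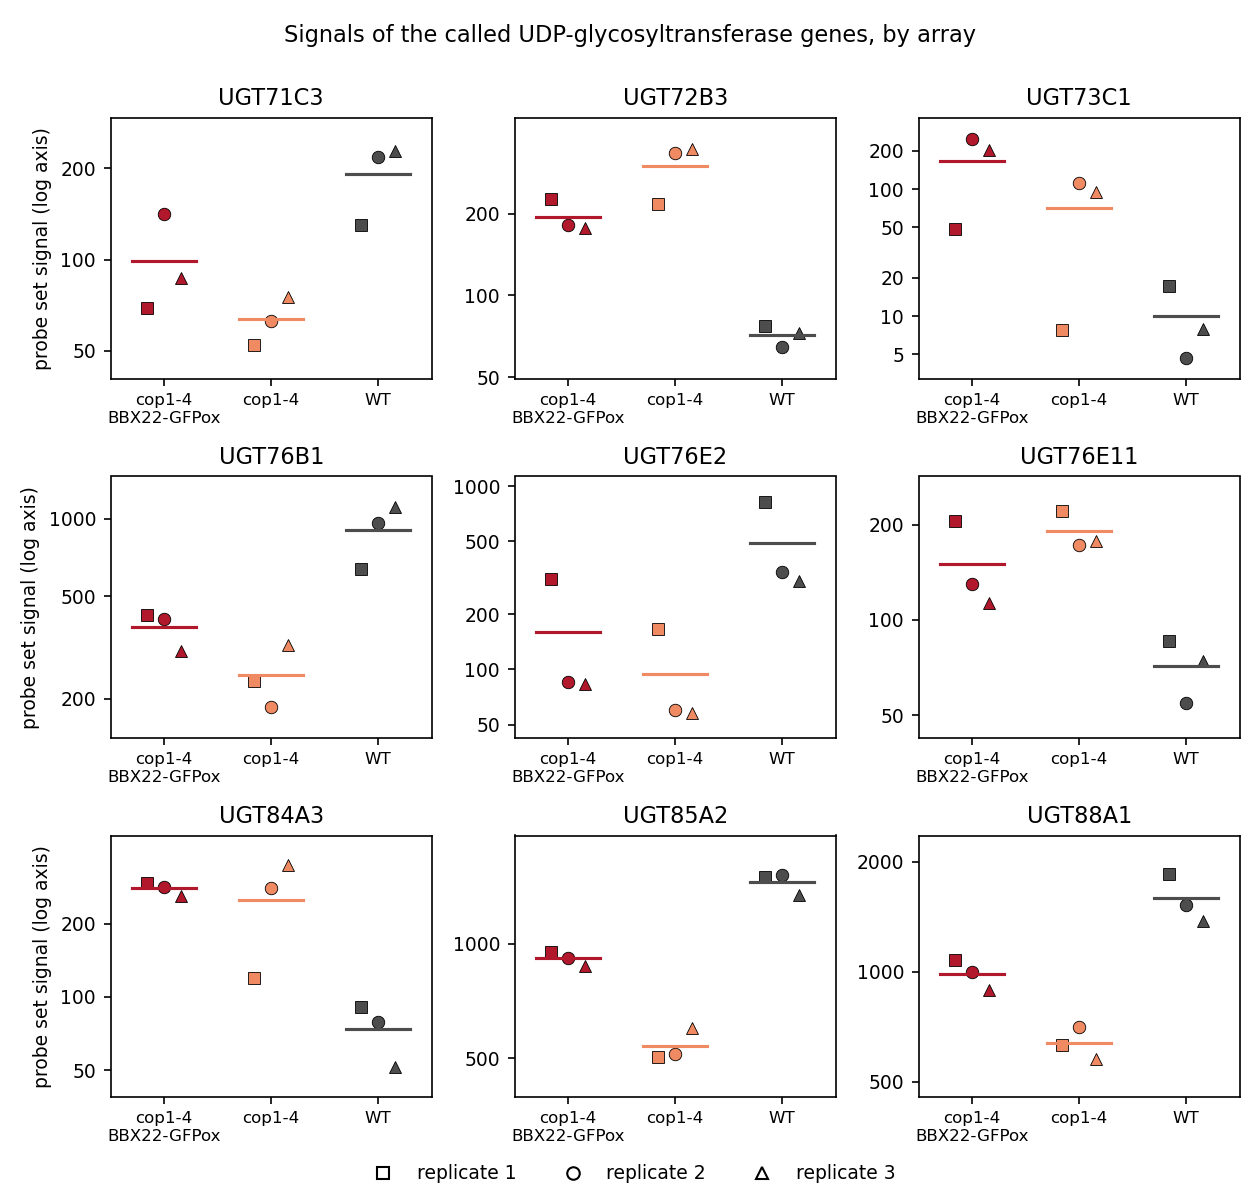
Deposited signal of the 9 genes called in at least 1 comparison, on a log axis, with 1 symbol per array, shaped by replicate, and a bar for the genotype mean. The WT arrays lie below all others in UGT72B3, UGT76E11 and UGT84A3 and above all others in UGT76B1, UGT85A2 and UGT88A1.

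The remaining 26 tested genes were not called in cop1-4 against WT. Nearest to the threshold was UGT73D1, with signals of 51.8, 49.9 and 54.4 in cop1-4 BBX22-GFPox, 145, 163 and 104 in cop1-4, and 42.6, 61.8 and 105 in WT. Its cop1-4 and WT arrays overlapped through WT replicate 3, and the difference of 0.82 had an adjusted p of 0.0586 in limma and 0.0472 with the replicate block. The block also brought in UGT85A5 at -0.83 (adjusted p = 0.231 without and 0.0362 with it), whose signals were 99.0, 69.2 and 52.4 in cop1-4 BBX22-GFPox, 158.5, 70.1 and 25.6 in cop1-4, and 245, 109.5 and 109.5 in WT. The arrays of cop1-4 overlapped those of WT in UGT85A5, and those of cop1-4 BBX22-GFPox lay below them. With the block 11 of the 34 genes were called (32.4%, against 44.6% of all probe sets), all 8 of the genes named above being among them.

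In family UGT71 the abscisic acid glucosyltransferase UGT71C5 lay below WT in all cop1-4 arrays (-0.51, adjusted p = 0.177, limma) but was not called, and UGT71B1, UGT71C1, UGT71C2 and UGT71C4 ran from -0.56 to 0.70. UGT71C4, the brightest probe set of the family, had signals of 1978 in replicate 1, 979.6 in replicate 2 and 1011 in replicate 3 of cop1-4 BBX22-GFPox, 2178, 795.5 and 666 in cop1-4, and 673, 683 and 561 in WT. Its 2 mutant replicate 1 arrays stood well above all others. In family UGT73 none of the 5 tested genes was called in cop1-4: UGT73B1, UGT73B4, UGT73B5, UGT73C1 and UGT73D1 ran from -0.31 to 1.24. UGT73B4 and UGT73B5, known from responses to pathogens and oxidative stress, stood at -0.24 and -0.31.

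Family UGT74 also had no call in cop1-4. The auxin glucosyltransferase UGT74D1 had signals of 1394, 1072 and 1222 in cop1-4 BBX22-GFPox, 938, 787 and 735 in cop1-4, and 1052, 471 and 396 in WT. WT replicate 1 lay above all cop1-4 arrays and the other WT arrays below them, so these genotypes overlapped, while all cop1-4 BBX22-GFPox arrays were higher. UGT74B1, which makes the desulfoglucosinolate core, and UGT74F1, which glucosylates salicylic acid, stood at -0.20 and -0.42. In family UGT76 the cytokinin N-glucosyltransferases UGT76C1 and UGT76C2 stood at -0.16 and -0.56 and UGT76D1, which acts on dihydroxybenzoic acids, at 0.62, none called. UGT76C2 had signals of 867, 462 and 645 in cop1-4 BBX22-GFPox, 897, 433 and 379.9 in cop1-4, and 512, 872 and 1111 in WT. Within replicate 1 its cop1-4 signal was above WT and within replicates 2 and 3 below it.

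UGT85A4 and UGT85A7 stood at 0.62 and 0.11, the flavonol rhamnosyltransferase UGT78D1 at -0.45, the sterol glucosyltransferase UGT80B1 at 0.17 and UGT87A2, known as a regulator of flowering time, at 0.11, with no call among them. Genes were grouped by the acceptor they are best known for. Of those tested, 1 of 6 for hydroxycinnamates and monolignols rose and 1 of 3 for salicylate and benzoates fell. In the jasmonate class the 1 tested gene, UGT76E2, fell, while UGT76E1, credited above with glucosylating hydroxylated jasmonate, was under the filter. None was called in cop1-4 among 3 tested for cytokinins, 2 for stress responses, and 1 each for abscisic acid, auxin, flavonols, glucosinolates and sterols. The other 5 called genes, 2 risen and 3 fallen, were among 14 tested genes placed in no class. One of these was UGT71C3, with which 2 of 4 tested genes for salicylate and benzoates would have fallen. UGT88A1 and UGT76E11, linked above to quercetin and to flavonoid levels, were also among them, so the flavonol count rests on UGT78D1 alone. Over all probe sets 11.3% were raised and 14.5% lowered, and classes of 1 to 6 genes are too small to be set apart from those shares.

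**Figure D3:**
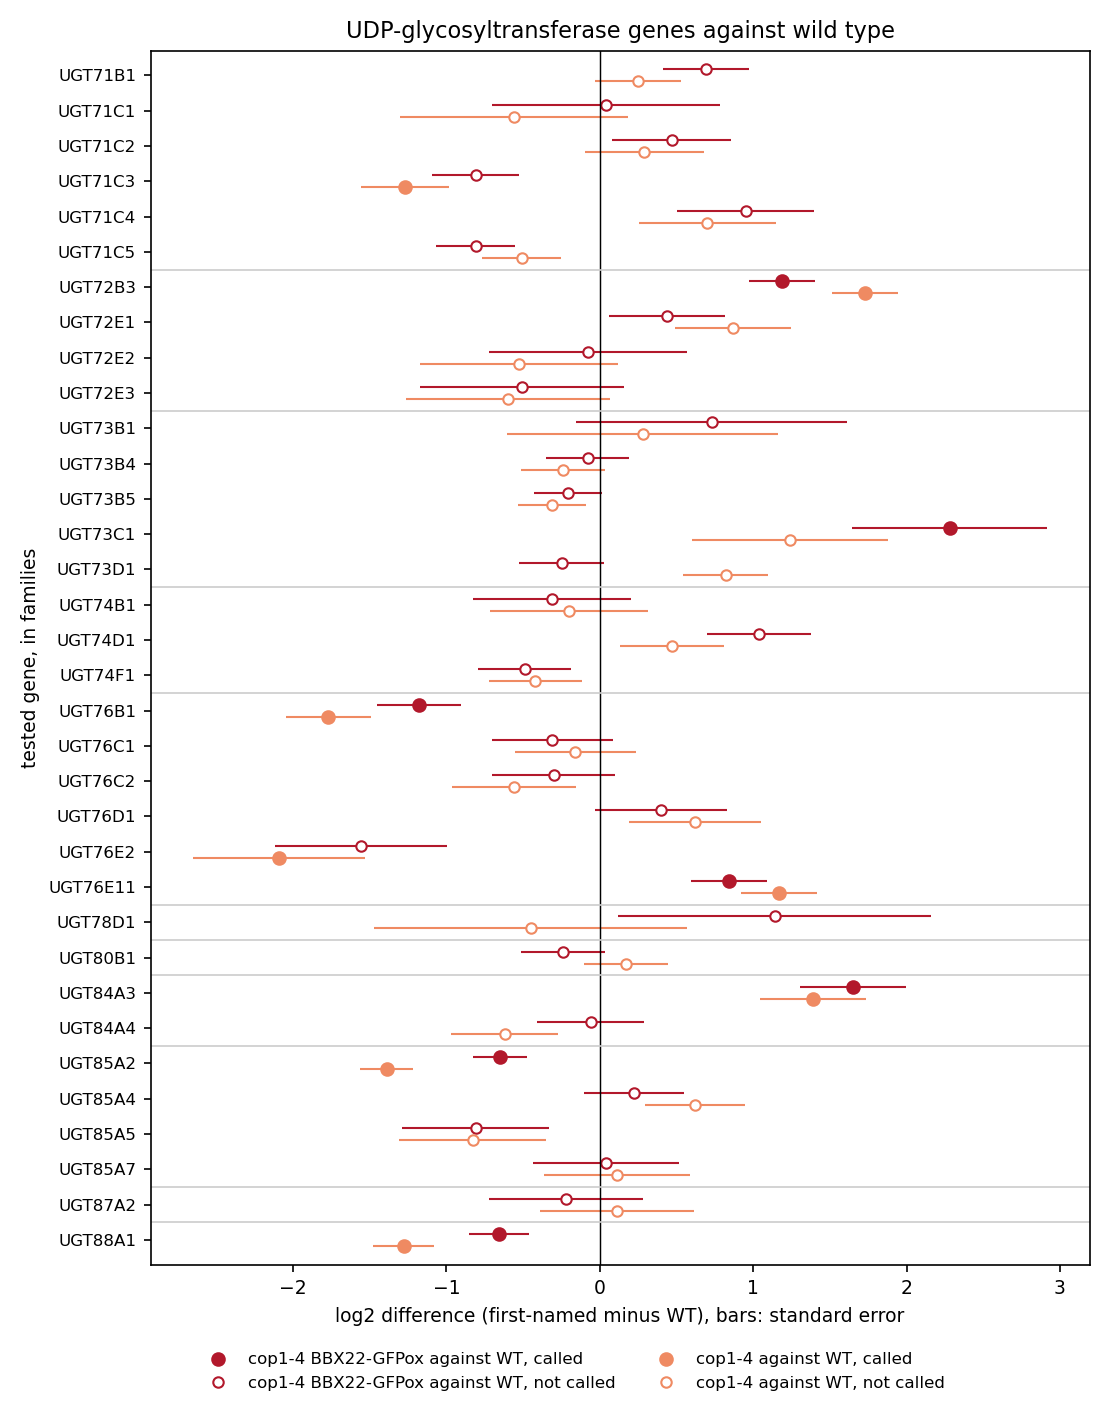
Log2 differences from WT of the 34 tested genes, in families, with the standard error of the fit as bars. Dark red is cop1-4 BBX22-GFPox and orange cop1-4, and filled symbols are called, 7 in the first and 8 in the second. UGT72B3, UGT84A3 and UGT76E11 lie above 0 and UGT76B1, UGT85A2 and UGT88A1 below it in both, against the same WT arrays.

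The second comparison set cop1-4 BBX22-GFPox against WT and shares the WT arrays with the first. Of the 34 genes, 4 rose (UGT73C1, UGT84A3, UGT72B3 and UGT76E11) and 3 fell (UGT76B1, UGT88A1 and UGT85A2). This is 20.6% of the genes, against 21.5% of all probe sets, with 11.8% risen against 9.8% and 8.82% fallen against 11.7%. UGT73C1 lay under the offset in all WT arrays and passed the filter through the mutant arrays. Without it 3 of 33 rose (9.09%) and 18.2% of the 33 were called, both shares below those of all probe sets. The median difference was -0.08, against -0.11 over all probe sets. The cop1-4 BBX22-GFPox arrays lay wholly above WT in 7 genes (20.6%, against 19.2% of all probe sets) and wholly below in 5 (14.7%, against 24.6%). The 7 include UGT73C1, without which their share is not above that of all probe sets. With the replicate block 14 genes were called (41.2%, against 40.7%): the 7 named and UGT71B1, UGT71C4, UGT74D1, UGT71C3, UGT71C5, UGT76E2 and UGT85A5, of which the first 3 were higher and the other 4 lower than in WT. The count of called genes was 2 without WT replicate 2, WT replicate 3, or cop1-4 BBX22-GFPox replicate 2 or 3 (5.88% each, against 11.4% to 12.5% of all probe sets). It was 4 without cop1-4 replicate 2 (11.8%, against 18.0%), 11 without cop1-4 replicate 1 (32.4%, against 30.3%), and 18 in replicates 2 and 3 alone (52.9%, against 60.2%). With every array scaled to the same median 4 rose and 1 fell (14.7% called, against 21.1% of all probe sets). Over all probe sets that scaling gave 1855 risen and 1510 fallen, against 1561 and 1866 without it.

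UGT73C1, which adds glucose to cytokinins at oxygen, was called in this comparison but not in cop1-4 against WT. Its signals were 48.5, 250.5 and 202 in cop1-4 BBX22-GFPox, 7.8, 111 and 94.8 in cop1-4, and 17.4, 4.7 and 7.9 in WT. All 3 WT arrays and cop1-4 replicate 1 lay under the offset of 24.5, and the log2 differences understate the change. The difference between cop1-4 BBX22-GFPox and WT was 2.28 (SE 0.636, limma adjusted p = 0.0345), being 0.80 within replicate 1 and 3.02 in replicates 2 and 3. The difference between cop1-4 and WT was 1.24 (adjusted p = 0.179), being -0.38 within replicate 1 and 2.05 in replicates 2 and 3. That between the mutant genotypes, cop1-4 BBX22-GFPox minus cop1-4, was 1.04 (adjusted p = 0.876). The call in cop1-4 BBX22-GFPox was lost without any one of 5 arrays: WT replicates 1, 2 and 3 (adjusted p of 0.0716, 0.101 and 0.0962) and cop1-4 BBX22-GFPox replicates 2 and 3 (0.119 and 0.118).

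For the other genes called in cop1-4 BBX22-GFPox the values of both mutant genotypes are given side by side, since both were set against the same WT arrays. UGT84A3 differed from WT by 1.65 in cop1-4 BBX22-GFPox (limma adjusted p = 0.0114) and by 1.39 in cop1-4, and UGT72B3 by 1.19 (adjusted p = 0.0066) and 1.73. Both calls in cop1-4 BBX22-GFPox were kept in all 9 leave-outs. In cop1-4 BBX22-GFPox and in cop1-4, UGT76E11 differed by 0.84 (adjusted p = 0.0422) and 1.17, and UGT76B1 by -1.18 (0.0181) and -1.77. UGT88A1 differed by -0.66 (adjusted p = 0.0426) and -1.28, and UGT85A2 by -0.65 (0.0296) and -1.39. UGT76B1 lost its call without WT replicates 2 or 3 or cop1-4 BBX22-GFPox replicates 2 or 3 (adjusted p of 0.0648, 0.0696, 0.0501 and 0.0731 in that order). UGT85A2 lost it without any WT array (0.0777, 0.0972 and 0.0664 for replicates 1, 2 and 3), cop1-4 replicate 2 (0.0514) or cop1-4 BBX22-GFPox replicates 2 or 3 (0.0935 and 0.102), and with each array scaled to the same median (0.0586). UGT88A1 lost it without any array except replicate 1 of either mutant genotype (0.0631 without cop1-4 replicate 2 to 0.144 without cop1-4 BBX22-GFPox replicate 3) and with the same scaling (0.11). UGT76E11 lost it without any array except cop1-4 replicate 1 (0.0553 without cop1-4 BBX22-GFPox replicate 3 to 0.135 without WT replicate 2), and with the same scaling (0.0572).

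UGT76E2 and UGT71C3, called in cop1-4 against WT, were not called here. In cop1-4 BBX22-GFPox they stood at -1.56 (adjusted p = 0.0794) and -0.81 (0.0739) against WT, and their signals there overlapped those of WT. Differences between the 2 mutant genotypes are tested in the third comparison, and none of these genes passed it. UGT74D1, the brightest gene of family UGT74, stood at 1.04 in cop1-4 BBX22-GFPox (limma adjusted p = 0.0589, and 0.0106 with the replicate block), with all 3 arrays above the 3 of WT.

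The third comparison asked what the BBX22-GFPox construct changes in the cop1-4 background. None of the 34 genes was called by limma, and the lowest adjusted p was 0.173, while 48 of 15922 probe sets were called (0.301%, with 0.283% raised and 0.0188% lowered). The count was also 0 with the replicate block (1.29% of all probe sets called). At an unadjusted limma p under 0.05 there were 4 of the 34 genes, UGT85A2, UGT73D1, UGT88A1 and UGT72B3, against 1194 of 15922 probe sets. The median difference was 0.17, against 0 over all probe sets, with 21 genes above 0 and 13 below, while 49.4% of all probe sets were above 0. The cop1-4 BBX22-GFPox arrays lay wholly above those of cop1-4 in 3 genes, UGT74D1, UGT85A2 and UGT88A1 (8.82%, against 6.37% of all probe sets), and wholly below in UGT73D1 (2.94%, against 4.99%).

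The lowest p belonged to UGT85A2, at 0.74 (SE 0.174, adjusted p = 0.173, limma), with 0.89 within replicate 1 and 0.67 in replicates 2 and 3. The adjusted p was 0.0817 with the replicate block, and the gene was called with replicate 1 as a batch term (0.0317, limma), with array weights (0.00199) and in replicates 2 and 3 alone (0.00326). Its arrays are those given above, in which cop1-4 BBX22-GFPox was the higher by a clear gap in each replicate. UGT88A1 stood at 0.61 (adjusted p = 0.387) and UGT74D1 at 0.57 (adjusted p = 0.86), each higher in all 3 replicates. UGT73D1 stood at -1.06 (SE 0.276, adjusted p = 0.24), its cop1-4 BBX22-GFPox arrays all lying below those of cop1-4, and at -0.25 against WT. UGT72B3 stood at -0.54 (adjusted p = 0.592), with 0.06 within replicate 1 and -0.84 in replicates 2 and 3.

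The largest difference between the mutant genotypes was that of UGT78D1, which attaches rhamnose to flavonols at the third carbon. Its signals were 102, 952 and 899 in cop1-4 BBX22-GFPox, 10.7, 298 and 341 in cop1-4, and 123, 257 and 231 in WT. Within each replicate cop1-4 BBX22-GFPox was above cop1-4, while replicate 1 of both lay so low that the genotypes overlapped. The difference of 1.59 (SE 1.02) was not called by limma (adjusted p = 0.897, and 0.156 with the replicate block), being 1.85 within replicate 1 and 1.47 in replicates 2 and 3. Against WT, cop1-4 BBX22-GFPox stood at -0.22 within replicate 1 and 1.82 in replicates 2 and 3. Its neighbour in name UGT78D3, a flavonol arabinosyltransferase under the filter, had signals of 5.6, 51.2 and 43.9 in cop1-4 BBX22-GFPox, 27.8, 42.3 and 39.1 in cop1-4, and 11.6, 8.9 and 9.0 in WT. Both mutant genotypes lay above WT in replicates 2 and 3 of UGT78D3.

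In replicates 2 and 3 alone, 14 of the 34 genes were called in this comparison (41.2%, against 24.2% of all probe sets), 8 higher and 6 lower in cop1-4 BBX22-GFPox. The higher ones were UGT78D1, UGT73C1, UGT71C1, UGT85A2, UGT71C2, UGT74D1, UGT88A1 and UGT71C4, with differences of 0.44 to 1.47. The lower ones were UGT73D1, UGT87A2, UGT72B3, UGT72E1, UGT80B1 and UGT74B1, with differences of -1.02 to -0.45. That fit rests on 2 arrays per genotype that were close to each other, and within replicate 1 the sign differed in UGT71C2, UGT71C4, UGT72B3, UGT74B1 and UGT87A2. UGT71C1, which accepts hydroxycinnamic acids in vitro, had signals of 132 in replicate 1 and 691 and 614 in replicates 2 and 3 of cop1-4 BBX22-GFPox, 133, 320.5 and 352 in cop1-4, and 131, 790.3 and 491 in WT. In replicate 1 the 3 genotypes were nearly equal.

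**Figure D4:**
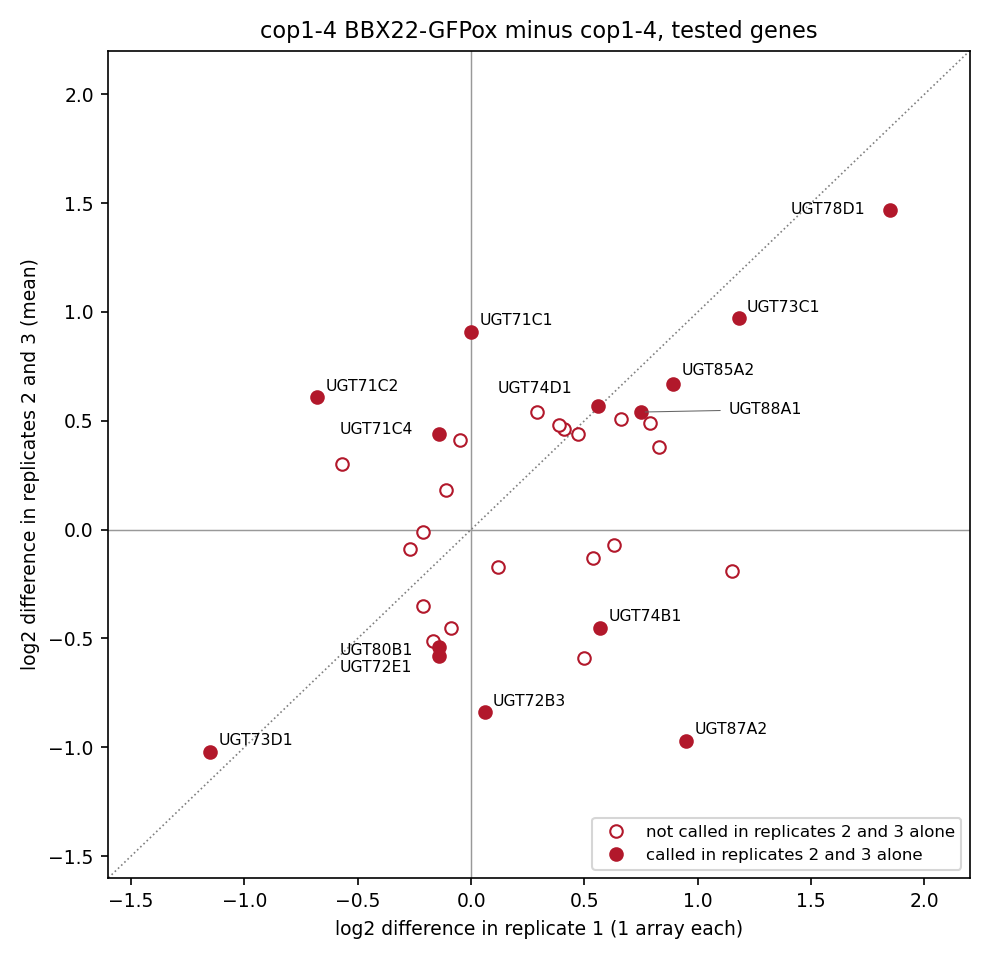
Log2 difference between cop1-4 BBX22-GFPox and cop1-4 of the 34 tested genes within replicate 1 (x axis) and in the mean of replicates 2 and 3 (y axis), with the dotted line marking equality. Filled symbols are the 14 genes called in replicates 2 and 3 alone; UGT78D1, UGT73C1, UGT85A2 and UGT73D1 lie near the line and UGT87A2 far from it.

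By counts, the departure of replicate 1 in the 34 tested genes was close to that elsewhere, and its median size was larger. The genes were not matched to other probe sets by signal. A filter at the 50th percentile kept 18 of the 34 genes, against 11373 of the 15922 probe sets. Whether signal level accounts for the larger median size was not tested. On the log2 scale, replicate 1 lay above the mean of replicates 2 and 3 in all 3 genotypes for 10 of the 34 genes (29.4%, against 25.5% of all probe sets), and below it in all 3 for 11 (32.4%, against 32.4%). The median size of the shift, regardless of sign, was 0.64 in cop1-4 BBX22-GFPox, 0.79 in cop1-4 and 0.66 in WT, against 0.55, 0.62 and 0.33 over all tested probe sets. The highest upward shift was that of UGT73B1, with signals of 2362, 360.4 and 372 in cop1-4 BBX22-GFPox, 1694, 241 and 287 in cop1-4, and 735, 324 and 277 in WT. Replicate 1 was the highest array in every genotype, by shifts of 2.61, 2.58 and 1.23 in the same order. The largest downward shifts were those of UGT78D1, at -2.91, -3.28 and -0.87. UGT72E2 had signals of 259.9, 867 and 677 in cop1-4 BBX22-GFPox, 192, 476 and 615 in cop1-4, and 227, 768 and 1017 in WT. UGT72E3 had 4.1, 98.5 and 72.1 in cop1-4 BBX22-GFPox, 6.4, 65.5 and 78.5 in cop1-4, and 31.4, 100.5 and 117 in WT. Both were lowest in replicate 1 of all genotypes, whereas UGT72E1 of the same family was highest there, by shifts of 0.94 in cop1-4 BBX22-GFPox, 0.50 in cop1-4 and 1.03 in WT.

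**Figure D5:**
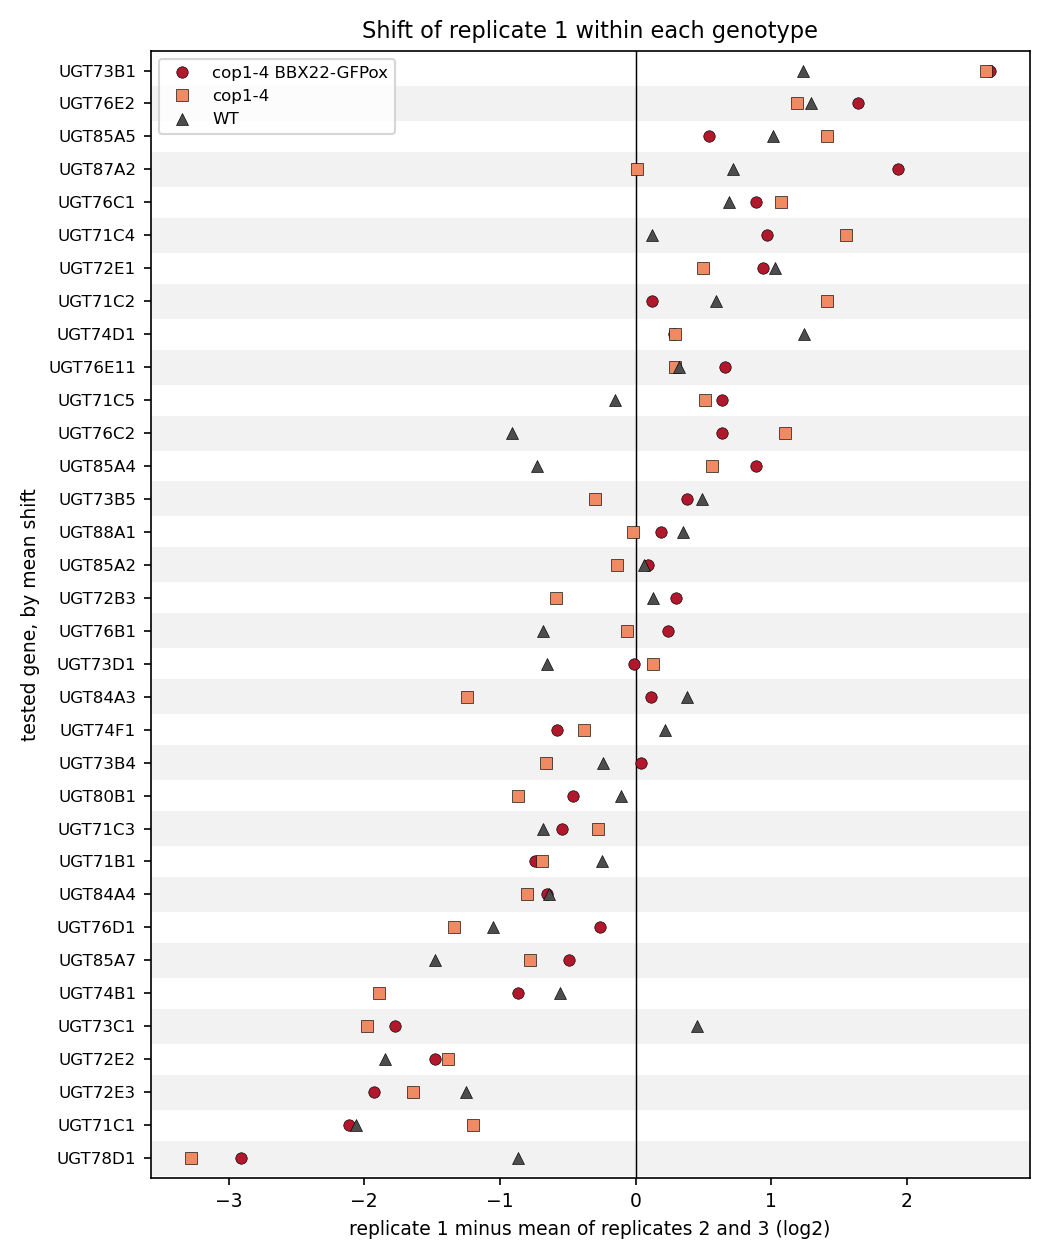
Replicate 1 minus the mean of replicates 2 and 3 within each genotype, as log2(signal + 24.5), for the 34 tested genes ordered by their mean shift. UGT73B1 shows the highest shifts (2.61 in cop1-4 BBX22-GFPox, 2.58 in cop1-4 and 1.23 in WT) and UGT78D1 the lowest (-2.91, -3.28 and -0.87), while UGT85A2 and UGT88A1 lie close to 0.

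Among the 12 genes under the filter, UGT84A1, another hydroxycinnamate glucosyltransferase, showed the widest range. Its signals were 5.3, 135 and 156 in cop1-4 BBX22-GFPox, 3.1, 36.4 and 51.0 in cop1-4, and 6.3, 6.7 and 9.0 in WT. Replicate 1 was under the offset in every genotype, so the genotypes overlapped, while in replicates 2 and 3 the order was cop1-4 BBX22-GFPox above cop1-4 above WT. UGT71B8, which acts on abscisic acid, had 6.5, 3.5 and 3.3 in cop1-4 BBX22-GFPox, 11.4, 5.5 and 7.7 in cop1-4, and 63.9, 25.4 and 15.1 in WT. Fitted with no filter, it was the only one of the 12 called in any comparison, at -0.95 in cop1-4 BBX22-GFPox against WT (adjusted p = 0.0498, limma). UGT76E1 and UGT84B2 lay under the offset in all 9 arrays, and UGT71B6 and the auxin glucosyltransferase UGT84B1 in 7 of 9.

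Along the chromosomes of the TAIR10.1 gene order, 29 of the 46 genes lay in 12 clusters of members at most 5 protein-coding genes apart, and 17 lay alone. In cop1-4 against WT, 5 clusters held a called gene and none held 2. Several clusters had fewer than 2 tested genes and could not hold 2, and whether neighbours move together was not tested. UGT71C3 fell while its neighbours UGT71C4 and UGT71C5 stood at 0.70 and -0.51. UGT85A2 fell beside UGT85A5 and UGT85A7, which were not called, and UGT85A3 under the filter. UGT84A3 rose between UGT84A1 under the filter and UGT84A4 at -0.62. UGT76E2 fell next to UGT76E1, and UGT76E11 rose next to UGT76E12, both of which were under the filter.

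Another 4 genes carry a name of this pattern only as a synonym in the gene table. Of these GT72B1 (UGT72B1), which conjugates monolignols and chlorophenols, had signals of 356.5, 772 and 818 in cop1-4 BBX22-GFPox, 224, 307 and 321 in cop1-4, and 945, 1639 and 1916 in WT. It fell in cop1-4 (-2.26, SE 0.371, limma adjusted p = 0.00392), opposite in sign to UGT72B3. The 3 genotypes held separate ranges in the same order as in UGT85A2, and cop1-4 BBX22-GFPox differed by 1.06 from cop1-4 (adjusted p = 0.462, and 0.0381 with the replicate block) and by -1.20 from WT (adjusted p = 0.0486). The last call was lost without any array except replicate 1 of WT or cop1-4, the adjusted p reaching 0.157 without WT replicate 3. SGT (UGT80A2), a sterol glucosyltransferase, stood at -0.70 in cop1-4 BBX22-GFPox (adjusted p = 0.0541, and 0.023 with the block) and -0.68 in cop1-4 (0.0539 and 0.0237) against WT, and both passed without replicate 1 of either mutant genotype. UF3GT (UGT79B1), which extends the sugar of anthocyanins, had signals of 13.1, 618 and 593 in cop1-4 BBX22-GFPox, 20.5, 55.2 and 88.8 in cop1-4, and 9.0, 103 and 186 in WT. Replicate 1 was under the offset in every genotype, and in replicates 2 and 3 cop1-4 BBX22-GFPox was highest and cop1-4 lowest. No comparison of UF3GT was called over all arrays, whereas in replicates 2 and 3 alone limma gave adjusted p of 2.05e-06 for cop1-4 BBX22-GFPox against cop1-4, 1.07e-05 for cop1-4 BBX22-GFPox against WT and 0.0116 for cop1-4 against WT. The fit of these 2 close arrays per genotype called 24.2%, 60.2% and 62.4% of all probe sets in the same order. Leaving out cop1-4 BBX22-GFPox replicate 1 also gave a call against WT (0.0297). AT5G54010 (UGT79B6) was under the filter and not tested.

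Of 87 listed genes of UDP-sugar supply, phenylpropanoid entry and sinapate esters, the glucosinolate core and cytokinin turnover, 4 had a probe set with 1 gene, and all 4 were tested. HCT, a hydroxycinnamoyltransferase of the route to monolignols, fell in both mutant genotypes. Its signals were 998, 1364 and 1429 in cop1-4 BBX22-GFPox, 1114, 1631 and 1543 in cop1-4, and 2565, 3546 and 3357 in WT, with all mutant arrays below all WT arrays. The difference was -1.31 in cop1-4 BBX22-GFPox (limma adjusted p = 0.00768) and -1.13 in cop1-4 (0.0127, and 0.0501 without WT replicate 2). USP, which makes UDP-sugars, was not called in any comparison, and neither were REF1 and GSTU20 over all 9 arrays. GSTU20, a glutathione transferase, had signals of 40.4, 1503 and 1807 in cop1-4 BBX22-GFPox, 11.3, 2955 and 3208 in cop1-4, and 234.6, 461 and 500.1 in WT. Both mutant genotypes lay below WT in replicate 1 and above it in replicates 2 and 3. In replicates 2 and 3 alone the adjusted p of GSTU20 was 1.66e-07 for cop1-4 BBX22-GFPox against WT, 3.68e-09 for cop1-4 against WT and 0.000329 between the mutant genotypes (limma). That fit rests on 2 close arrays per genotype and called 60.2%, 62.4% and 24.2% of all probe sets in the same order. REF1, an aldehyde dehydrogenase that makes ferulate and sinapate, was called against WT in that fit as well, with limma adjusted p of 0.00515 in cop1-4 BBX22-GFPox and 0.00254 in cop1-4.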

How the data were processed

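The authors deposited a table of probe set intensity values on a linear scale for 9 one-colour Affymetrix arrays, computed with MAS5 according to the submitters' processing notes, whose version and target value are not given here. The 2% trimmed mean was 495 or 496 in every array. Genes were named from the platform annotation, and all 46 members matched a TAIR10.1 gene table, used for names and gene order only. Two-sided tests were made on log2(signal + 24.5), where the offset is the 20th percentile of the table, with limma 3.58.1 (lmFit, eBayes with intensity trend) in R 4.3.3. The fit had 1 mean per genotype over all 9 arrays and 15922 probe sets, with Benjamini-Hochberg adjustment within each comparison. It was tested on simulated data with independent noise in each array. Those data had no shared shift of replicate 1, so that test does not cover the replicate structure seen here. The offset understates changes of dim probe sets, and the number of arrays limits the precision.

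Deviations from the genotype means correlated at 0.375 to 0.806 in all 9 pairs of same-numbered arrays. Arrays of different number were not correlated in this way. Because replicate 1 stood apart in every genotype, replicates 2 and 3 deviate in the same direction. These values therefore cannot show that replicates 2 and 3 are paired by number. The calls come from the fit without the replicate number, and a fit with it as a block was an alternative. The median array signal was 172 ± 12.6 (SD, n = 3) in cop1-4 BBX22-GFPox, 167 ± 18.7 in cop1-4 and 182 ± 8.79 in WT, with exact permutation p = 0.2 for either mutant genotype against WT and 0.8 between the mutants (smallest possible 0.1). The members, acceptor classes, lists and alternatives were chosen with earlier results of these data known. Values in every array were given for called members and for the brightest and most different member of each family of 3 or more. Alternatives covered the offset, filter, scaling, moderation, array weights, replicate block, replicate 1 as a batch term, replicates 2 and 3 alone and each array left out, and counts without UGT73C1 were added after seeing the data. Protein and promoter sequences were not used here.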

Additional observations from a re-analysis of the deposited data

How the results depend on the processing

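No called gene changed sign under any of the 21 alternatives that tested it, but many of these could not change a sign. The filter, the replicate block, the batch term, the intensity trend and the averaging of probe sets leave each difference as it is. So does leaving out an array of the genotype not compared. The median difference of the genes in cop1-4 BBX22-GFPox against WT, -0.08, ran from -0.21 to 0.05 with 1 array left out. That of cop1-4 against WT, -0.18, ran from -0.23 to -0.03, the last without cop1-4 replicate 1, and was -0.04 with array weights, -0.06 with quantile normalization or median scaling and -0.07 in replicates 2 and 3 alone. In cop1-4 against WT, 8 genes were called, and the count was 3 of 18 tested with the filter at the 50th percentile (16.7%, against 29.3% of all probe sets), which took UGT72B3, UGT84A3, UGT76E11, UGT76E2 and UGT71C3 out of the test. It was 14 with replicate 1 as a batch term, 18 with array weights, 19 in replicates 2 and 3 alone, and 5 to 11 when 1 array was left out. Over all probe sets 4100 were called, 7096 with the replicate block, 7910 with the batch term, 9776 with array weights, 9932 in replicates 2 and 3 alone, and 2214 to 5641 with 1 array left out. Scaling to the same median gave 2294 risen and 1733 fallen, against 1795 and 2305. In cop1-4 BBX22-GFPox against WT, 7 genes were called, 4 of 18 tested with the stricter filter (22.2%, against 25.3%), 14 with the replicate block and with the batch term, 18 with array weights and in replicates 2 and 3 alone, and 2 to 11 with 1 array left out. Over all probe sets 3427 were called, 6479 with the block, 7250 with the batch term, 9389 with array weights, 9590 in replicates 2 and 3 alone, and 1819 to 4820 with 1 array left out. UGT76E11 also lost this call with no filter (adjusted p = 0.0695, limma), the larger offset (0.0548) and quantile normalization (0.059). In cop1-4 BBX22-GFPox against cop1-4, 0 genes were called, 1 with the batch term (UGT85A2, adjusted p = 0.0317, limma), 13 with array weights, 14 in replicates 2 and 3 alone, and 0 in each of the 9 leave-outs. Over all probe sets 48 were called, 27 with the stricter filter, 206 with the block, 432 with the batch term, 3510 with array weights, 3856 in replicates 2 and 3 alone, and 11 to 372 with 1 array left out. The cause of these moves was not tested, apart from the stricter filter, under which fewer genes were tested. Beyond the calls named beside their results, the replicate block changed no other call. Averaging the probe sets of a gene in place of the brightest gave identical values, as each gene had 1.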
